A study of Mus musculus with 5 samples.

Results

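BCL2 family genes were followed in mouse KLS cells, the sorted marrow fraction with c-Kit and Sca-1 but no lineage markers that holds blood stem cells and multipotent progenitors, with and without the RB family of pocket proteins. The set comprised 10 genes of 18193 with a value: the survival members Bcl2, Bcl2l1 and Mcl1, and the death members Bcl2l11, Bid, Bad, Bik, Hrk, Bmf and Bak1. Every probe set whose only annotated gene symbol was one of these names was taken, 35 of 45037 in all, 15 for survival and 20 for death members. RNA was measured on Affymetrix arrays, 2 of wild-type cells (genotype Rb +/+ p130 +/+ p107+/-, so the controls carried a single intact copy of the p107 gene) and 3 of RB family deficient cells (Rb -/- p130 -/- p107-/-). Recombination of the floxed alleles was induced with Mx1-Cre, which is driven by an interferon-responsive promoter and is therefore not restricted to stem cells, in mice 6 weeks old, and cells were sorted 2 months later. The study hybridised 6 arrays and left out 1 for high background. The labels do not say if an array is 1 animal or a pool. The p-values below therefore cover the spread among these 5 arrays alone, which may be technical.

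BCL2 family proteins decide at the mitochondrial outer membrane whether a cell starts apoptosis. The survival proteins BCL2, BCL-XL (from Bcl2l1) and MCL1 hold the effectors BAK (from Bak1) and BAX in check, and the BH3-only proteins, which share a single short helix with the rest of the family, either block the survival proteins or activate the effectors. MCL1 is short-lived, and mice that lose it in adult marrow lose their haematopoietic stem cells. BIM (from Bcl2l11) is the main BH3-only protein that limits blood cell numbers after cytokine withdrawal.

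Levels are log2 intensities, given as mean ± SD over 2 wild-type or 3 deficient arrays, and differences are deficient minus wild type on that scale. Levels of different probe sets are not compared, because each has its own response to RNA. Array medians lay between 4.71 and 4.74. As a guide to dim signal, 80 probe sets for smell and pheromone receptor genes were used, which blood-forming cells are not known to use. Adjusted p-values of a gene's brightest probe set are over the 18193 genes, and those of its other probe sets over all 45037 probe sets. The 95th percentile of the receptor probe sets was 4.89, called the dim reference here. Rbl1 (p107) RNA read 7.75 ± 0.83 in wild-type and 4.71 ± 0.45 in deficient arrays, Rb1 read 8.74 ± 0.13 and 8.39 ± 0.58, and Rbl2 (p130) 8.31 ± 0.44 and 7.84 ± 0.27, with overlapping groups for both; whether their probe sets lie in the deleted parts is not known here. Kit, which encodes the sort marker c-Kit, was above the dim reference. So were Cd34, Flt3 and Slamf1, which are not in the sort definition given above. Summed linear intensities of these 4 genes were 7146 to 8612 in wild-type and 7091 to 8860 in deficient arrays. Ly6a, which encodes Sca-1, was not analysed here. Deficient array 2 read 3.50 for the Y-linked gene Eif2s3y, where the other arrays read 9.81 to 10.37. For Xist it read 12.45, wild-type array 2 read 10.67, and the other 3 arrays lay between 5.09 and 6.12.

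None of the 10 genes passed the threshold. Mcl1 was the survival gene with the largest difference, 1.38-fold lower in deficient cells on its brightest probe set, and Bcl2l11 was the death gene with the largest, 1.43-fold higher, with 1 of 3 deficient arrays within the wild-type range. In limma, 0 of 35 probe sets had an adjusted p under 0.05 (smallest 0.151), where 0.491% of all probe sets did. With 1 probe set per gene, the brightest, 0 of 10 genes passed (smallest adjusted p 0.253), where 2.24% of all genes did. At an unadjusted p under 0.05 there were 4 lower probe sets, all of Mcl1, and 1 higher, of Bcl2, against backgrounds of 6.82% lower and 7.28% higher over the whole array. Group ranges did not overlap on 10 probe sets with the deficient arrays lower (background 15.2%) and on 1 with them higher (background 15.4%). Means were lower in deficient arrays on 25 probe sets (background 49.5%). At gene level, 1 gene was lower at an unadjusted p under 0.05 (Mcl1, background 9.86%) and 0 higher (background 8.79%). Groups stood apart with the deficient arrays lower for 3 genes, Mcl1, Bad and Bmf (background 18.6%), and higher for 0 (background 16.5%), and means were lower for 7 of 10 genes (background 51.9%). Of the 35 probe sets, 24 had a mean above the dim reference.

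**Figure D1:**
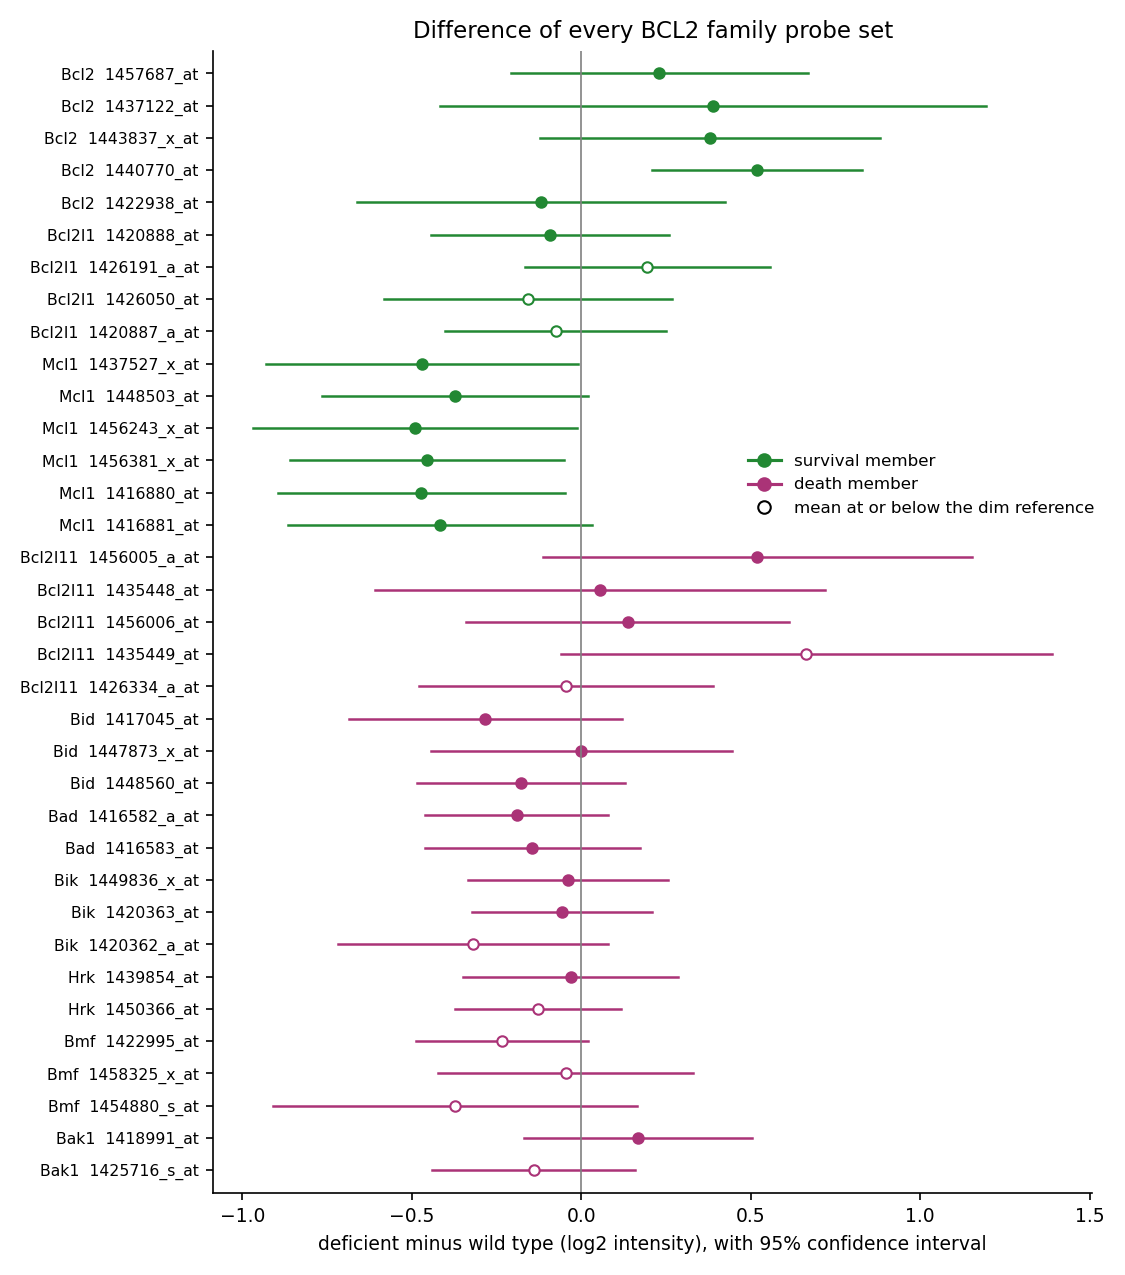
Difference between deficient and wild-type arrays (x axis, log2 intensity, with 95% confidence intervals from limma) for each of the 35 BCL2 family probe sets (y axis, gene and probe set), survival members in green, death members in purple, open symbols for means at or below the dim reference of 4.89. All 6 Mcl1 probe sets lie between -0.49 and -0.37, and the intervals of 2 of these include 0, as do those of 28 of the other 29 probe sets.

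Mcl1 read lower in deficient cells on each of its 6 probe sets. The brightest probe set (1437527_x_at) read 11.94 and 11.43 in wild-type arrays and 11.18, 11.07 and 11.40 in deficient arrays. All deficient arrays were lower than both wild-type arrays, but the gap between wild-type array 2 and deficient array 3 was 0.04. The difference was -0.47 (SE 0.19, 95% interval -0.92 to -0.02, limma adjusted p = 0.253), from 11.69 ± 0.36 to 11.22 ± 0.16. Of all genes, 8.18% had a more negative difference. The other 5 Mcl1 probe sets differed by -0.49 to -0.37, with adjusted p between 0.296 and 0.395, and group ranges stood apart on 5 of the 6, by gaps of 0.03 to 0.10. The exception, 1416881_at, read 8.52 and 9.01 in wild-type and 8.24, 8.53 and 8.26 in deficient arrays. It also ordered the wild-type arrays the other way round from the other 5. These 6 probe sets read RNA of 1 gene in the same 5 arrays and are not 6 independent measurements. The brightest is an _x_at probe set. Without _x_at and _s_at probe sets the Mcl1 difference was -0.37 (limma adjusted p = 0.299). In that fit 0 of 10 member genes had an unadjusted p under 0.05.

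The size of the Mcl1 difference depended on the wild-type arrays. Without wild-type array 1 it was -0.22 (adjusted p = 0.673), and without wild-type array 2 it was -0.72 (adjusted p = 0.145). MCL1 RNA is known to be induced quickly by growth factors and stress, and several other gene groups differed between the same arrays. All 6 immediate-early genes of a marker list (Fos, Jun, Egr1, Dusp1, Ier2 and Klf4) fell in limma, and their summed linear intensity was 13176 to 16518 in wild-type and 4143 to 5453 in deficient arrays. All 6 genes of the neutrophil marker list fell as well, with sums of 48799 to 59302 and 1250 to 2227. Of 5 B and plasma cell genes 2 passed as lower (sums 14751 to 28121 and 939 to 1163), with Cd79a at or below the dim reference. All 5 had lower means, where 51.9% of all genes did. Of 6 macrophage and dendritic genes 1 passed as lower and all 6 had lower means (sums 4364 to 6873 and 1583 to 2139). In the T and NK cell list Cd247, Cd3d and Cd3g were at or below the dim reference. This list had 2 of 6 genes passing as lower and 5 with lower means. Its sum ran the other way (1590 to 2341 and 2317 to 2937), and its gene Nkg7 read 10.66 ± 0.36 and 11.29 ± 0.18, higher in all deficient arrays (adjusted p = 0.152). The erythroid list had 0 of 4 passing (809 to 1513 and 523 to 1457), with Hba-a1 and Alas2 at or below the dim reference. The part of any of these in the Mcl1 difference was not tested, and in a sorted bulk sample fewer cells of a type and less RNA per cell cannot be told apart.

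Bcl2, the founding survival gene of the family, had 5 probe sets, all above the dim reference, which did not read alike. On the brightest (1457687_at) the wild-type arrays read 9.60 and 9.24 and the deficient arrays 9.49, 9.90 and 9.57, so the groups overlapped, with a difference of 0.23 (SE 0.18, 95% interval -0.20 to 0.66, adjusted p = 0.595). It was 0.41 without wild-type array 1 and 0.05 without wild-type array 2. The probe set 1440770_at read 6.79 and 7.03 in wild-type and 7.36, 7.39 and 7.53 in deficient arrays. Here all deficient arrays were above both wild-type arrays, by at least 0.33, and the difference of 0.52 (SE 0.13, limma adjusted p = 0.151) was the closest of the 35 to the threshold. That probe set differed by 0.40 to 0.64 when 1 array was left out. Differences on 1437122_at and 1443837_x_at were 0.39 and 0.38, with overlapping groups and wild-type array 1 above wild-type array 2 on both. They were -0.05 and 0.13 without wild-type array 2, and 0.83 and 0.63 without wild-type array 1. The dimmest, 1422938_at, went the other way, at -0.12 (adjusted p = 0.888).

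Bcl2l1, which encodes BCL-XL, the survival protein on which red cell precursors and platelets depend, was read by 1 probe set above the dim reference (1420888_at). Wild-type arrays read 9.34 and 8.95, and deficient arrays 9.04, 9.10 and 9.02. The deficient arrays lay between the wild-type arrays. The difference was -0.09 (SE 0.14, 95% interval -0.44 to 0.26, adjusted p = 0.821), and it was 0.10 without wild-type array 1. The other 3 probe sets of the gene had means at or below the dim reference and differed by -0.16 to 0.19.

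**Figure D2:**
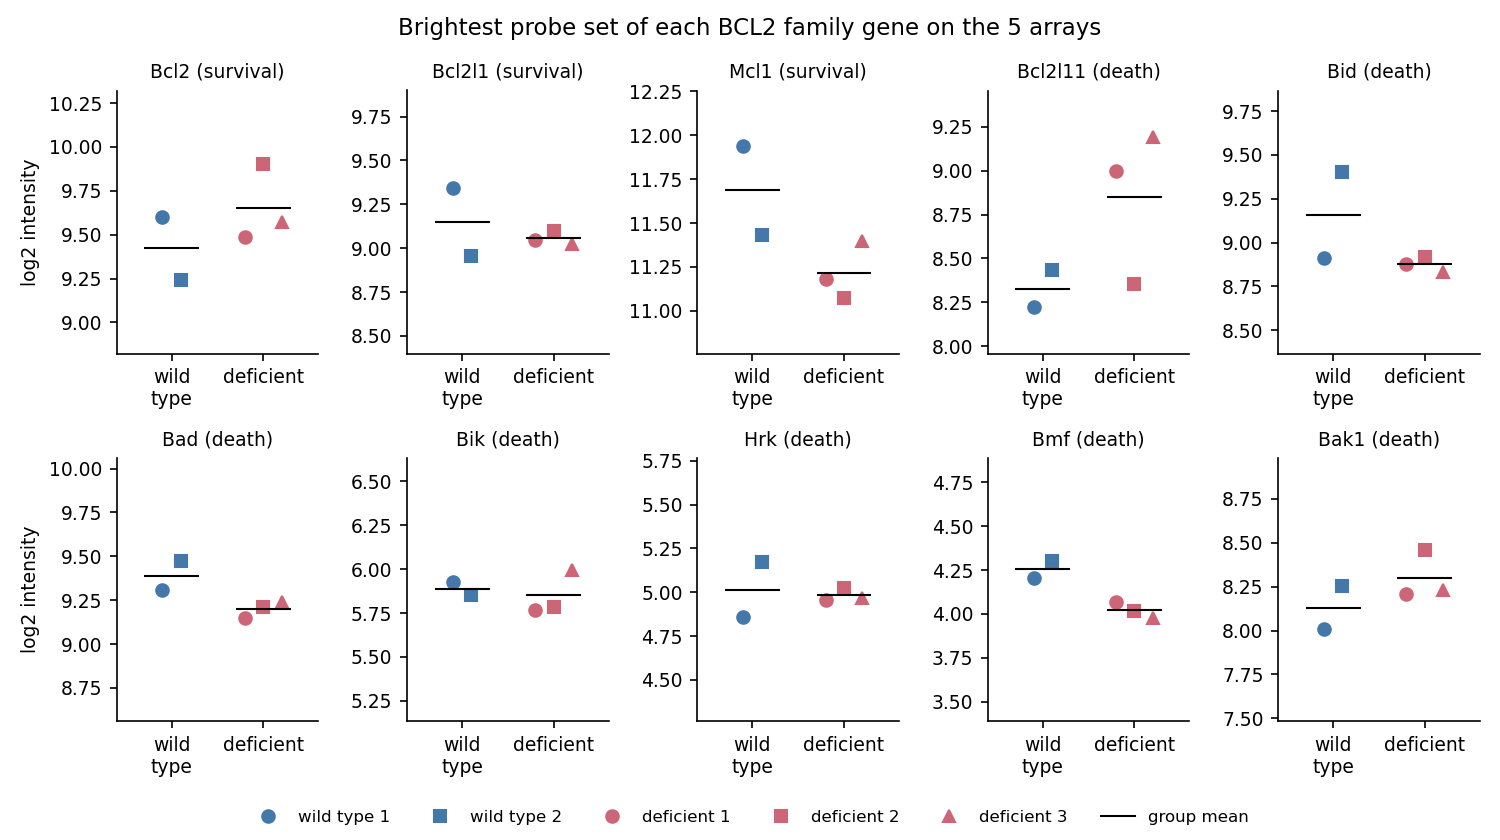
Log2 intensity (y axis, a window of the same height in each panel) of the brightest probe set of the 10 BCL2 family genes in 2 wild-type and 3 deficient arrays (x axis), 1 point per array, with group means as lines. Mcl1, Bad and Bmf have groups that do not overlap, and in Bcl2l11 deficient array 2 (8.36) sits with the wild-type arrays (8.22 and 8.44).

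To show the control regions of the survival genes whose means lay in opposite directions, the 250 bases before an annotated start of Mcl1 (chr3:95658471-95658720, plus strand) and of Bcl2 (chr1:106714291-106714540, minus strand) are printed from RefSeq, build GRCm38.p6. Capitals mark GGGCGG on either strand, the core of a GC box that SP1-type factors bind.
Mcl1: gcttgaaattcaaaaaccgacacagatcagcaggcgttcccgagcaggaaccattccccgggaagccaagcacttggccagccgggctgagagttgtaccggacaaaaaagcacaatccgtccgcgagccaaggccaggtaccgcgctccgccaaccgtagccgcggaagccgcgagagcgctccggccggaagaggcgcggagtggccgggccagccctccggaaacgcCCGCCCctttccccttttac
Bcl2: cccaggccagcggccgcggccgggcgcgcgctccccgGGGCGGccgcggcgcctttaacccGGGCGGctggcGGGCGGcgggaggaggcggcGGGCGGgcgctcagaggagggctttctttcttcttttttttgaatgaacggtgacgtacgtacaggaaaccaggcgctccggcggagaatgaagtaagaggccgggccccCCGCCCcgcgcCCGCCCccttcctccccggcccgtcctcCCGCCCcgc
The Mcl1 window holds 1 such match and 64.4% G and C, and the Bcl2 window 7 matches and 74.8%, where the median of all 32851 windows is 52.4%. RefSeq windows were found for 9 of the 10 genes, 15 windows in all. GGGCGG was in 7 of these 15 and in 32.7% of all windows.

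Pocket proteins act through E2F factors, and FOXO factors are known activators of Bcl2l11, so both kinds of motif were searched on both strands of the same windows. The E2F letters TTTCGCGC, TTTGGCGC, TTTCCCGC and TTTGCCGC were in 1.86% of all windows and in 1 of 15 member windows, of Bcl2l1. The FOXO letters GTAAACA were in 3.17% of all windows and in 1 of 15, of Bcl2l11. The 30 bases around each are printed with the match in capitals, Bcl2l1 from chr2:152830844-152830873 (minus strand) and Bcl2l11 from chr2:128125799-128125828 (plus strand).
Bcl2l1: tccgcgtccctGCGCGAAAccttgagattc
Bcl2l11: caagacactaggGTAAACAcgccggggtgg
The first match lies at -145 from a start of Bcl2l1 and is the reverse complement of TTTCGCGC, and the second at -227 from a start of Bcl2l11. TGACTCA, the AP-1 letters, and TGACGTCA, the CRE letters, were in 0 of the 15 windows and in 4.46% and 1.55% of all windows. In the member windows no match of a motif overlapped a match of another. A match describes these letters and is not a binding site.

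Death members began with the BH3-only gene Bcl2l11, whose protein BIM binds all survival members. On the brightest probe set (1456005_a_at) the wild-type arrays read 8.22 and 8.44 and the deficient arrays 8.996, 8.36 and 9.19. Deficient arrays 1 and 3 were above both wild-type arrays, and deficient array 2 lay between them. The difference was 0.52 (SE 0.26, 95% interval -0.10 to 1.14, adjusted p = 0.360), from 8.33 ± 0.15 to 8.85 ± 0.44. Without deficient array 2 it was 0.77 (adjusted p = 0.107), without deficient array 3 it was 0.35, and with all 5 probe sets averaged it was 0.27. The second probe set, 1435448_at, read 8.31 and 7.99 in wild-type and 8.53, 7.69 and 8.39 in deficient arrays, so that the groups overlapped and the means lay 0.06 apart (SE 0.27, adjusted p = 0.963). On 1456006_at the values were 5.16 and 5.30 against 5.55, 5.01 and 5.54. Deficient array 2 was the lowest of the deficient arrays on all 3 probe sets above the dim reference. It is also the array set apart by Eif2s3y, while Xist was high both there and in wild-type array 2. What part the difference in Eif2s3y and Xist has in the Bcl2l11 values was not tested. The probe set 1435449_at, whose mean over the arrays is below the dim reference, read 4.28 and 4.53 against 5.38, 4.48 and 5.35. Its difference of 0.66 (limma adjusted p = 0.402) became 0.96 without deficient array 2 (adjusted p = 0.123). The dimmest probe set, 1426334_a_at, went the other way. It read 4.45 and 3.91 against 4.06, 4.21 and 4.13, a difference of -0.04, with deficient array 2 the highest of the deficient arrays.

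**Figure D3:**
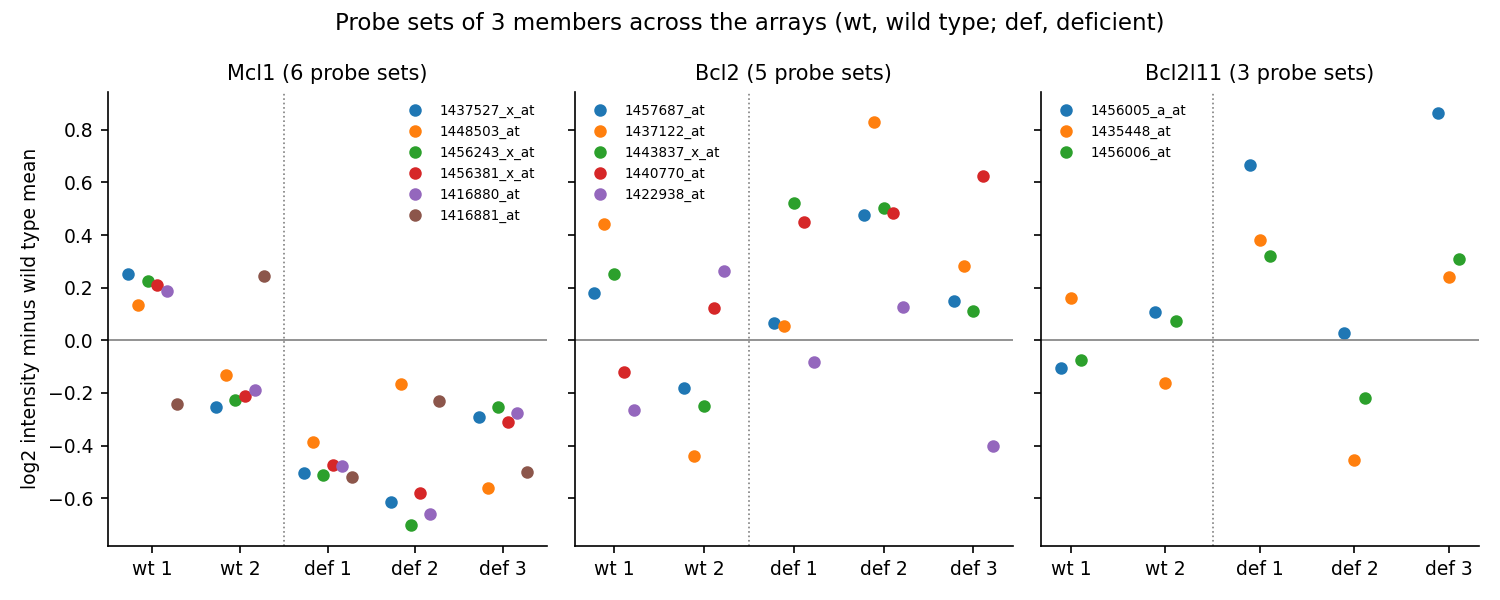
Log2 intensity of each probe set above the dim reference minus its own wild-type mean (y axis) on the 5 arrays (x axis; wt, wild type; def, deficient) for Mcl1, Bcl2 and Bcl2l11, 1 colour per probe set. The Mcl1 probe sets lie below 0 on all deficient arrays, the Bcl2 probe sets spread, and the Bcl2l11 probe sets lie above 0 on deficient arrays 1 and 3, while on deficient array 2 the brightest is near 0 (8.36 against a wild-type mean of 8.33) and the other 2 are below 0; the 2 wild-type points of a probe set mirror each other because they are centred on their mean.

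Bid, which caspase 8 cleaves to pass death receptor signals to mitochondria, read 8.91 and 9.40 in wild-type and 8.88, 8.92 and 8.83 in deficient arrays on its brightest probe set (1417045_at). Wild-type array 1 lay within the deficient range and wild-type array 2 above it. The difference was -0.28 (SE 0.16, 95% interval -0.68 to 0.12, adjusted p = 0.445). It was -0.53 without wild-type array 1 and -0.04 without wild-type array 2. On 1448560_at the groups stood apart by 0.07, with a difference of -0.18 (adjusted p = 0.633), and on 1447873_x_at the difference was -0.0007.

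Bad, whose protein is held inactive by growth factor kinases, read 9.31 and 9.47 in wild-type and 9.15, 9.21 and 9.24 in deficient arrays on its brightest probe set (1416582_a_at). The groups did not overlap, with a gap of 0.07. The difference was -0.19 (SE 0.11, 95% interval -0.46 to 0.08, adjusted p = 0.454), and the other probe set (1416583_at), with overlapping groups, differed by -0.15 (adjusted p = 0.723). Without wild-type array 2 these were -0.11 and -0.0092.

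The BH3-only genes Bik, Hrk and Bmf gave signal near the dim reference. Bik had 2 of 3 probe sets above the dim reference, the brightest (1449836_x_at) at 5.89 ± 0.05 in wild-type and 5.85 ± 0.13 in deficient arrays (difference -0.04, SE 0.12, adjusted p = 0.919). Hrk, also named harakiri, had 1 of 2, with 5.02 ± 0.22 and 4.98 ± 0.04 (difference -0.03, SE 0.13, adjusted p = 0.942), and it turned to 0.13 without wild-type array 2. Bmf had 0 of 3. Its brightest probe set (1422995_at) read 4.21 and 4.301 in wild-type and 4.07, 4.01 and 3.98 in deficient arrays, with no overlap and a difference of -0.23 (SE 0.11, adjusted p = 0.318).

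Bak1, which encodes the pore-forming effector BAK, read 8.01 and 8.25 in wild-type and 8.21, 8.46 and 8.23 in deficient arrays on its bright probe set (1418991_at). The groups overlapped, with deficient array 2 the highest. The difference was 0.17 (SE 0.14, 95% interval -0.17 to 0.51, adjusted p = 0.621). It was 0.05 without wild-type array 1, 0.09 without deficient array 2, 0.29 without wild-type array 2 and 0.014 with both probe sets averaged. A dim probe set (1425716_s_at) differed by -0.14.

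Survival and death members were then set side by side. Over the brightest probe sets, the median difference was -0.09 for the 3 survival members, 1 higher and 2 lower, and -0.04 for the 7 death members, 2 higher and 5 lower. The survival median was the value of Bcl2l1, so the sizes of the Mcl1 and Bcl2 differences do not enter it. The median over all 18193 genes was -0.01, with 51.9% of genes lower. The survival median minus the death median was -0.05. It was 0.11 when the probe sets of each gene were averaged and 0.29 without wild-type array 1. Taken per array, survival minus death read 0.30 and -0.30 on the wild-type arrays and 0.02, 0.06 and -0.08 on the deficient arrays. The SD of these values pooled within groups was 0.25, larger in size than -0.05. The wild-type arrays lay further apart than the deficient arrays.

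The order of the wild-type arrays was also compared. On the brightest probe sets, wild-type array 1 read higher than wild-type array 2 in 3 of 3 survival members, by a median of 0.39, and lower in 6 of 7 death members, by a median size of 0.21 over the 7. Over all genes wild-type array 1 was higher for 48.4% and lower for 51.4%. On the members' probe sets it was higher on 10 of 15 survival and lower on 13 of 20 death probe sets. Over all probe sets it was higher on 48.1% and lower on 51.7%. Of the 10 higher survival probe sets, 5 were of Mcl1. In 7 of the 10 genes the gap between the wild-type arrays was larger than the difference between groups. The share of all genes with such a gap was not computed, so whether this count is particular to the family is not known. Centred on the wild-type mean of each gene, the survival median was -0.10, -0.05 and -0.12 on deficient arrays 1, 2 and 3, and the death median -0.12, -0.11 and -0.05. The deficient arrays thus lay between the wild-type arrays for the survival median (0.20 and -0.20). For the death median (-0.11 and 0.11) they lay within or just outside the wild-type range. On each array the survival median was the Bcl2l1 value. It does not show Mcl1, where all deficient arrays were below both wild-type arrays, or Bcl2, where the groups overlapped.

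**Figure D4:**
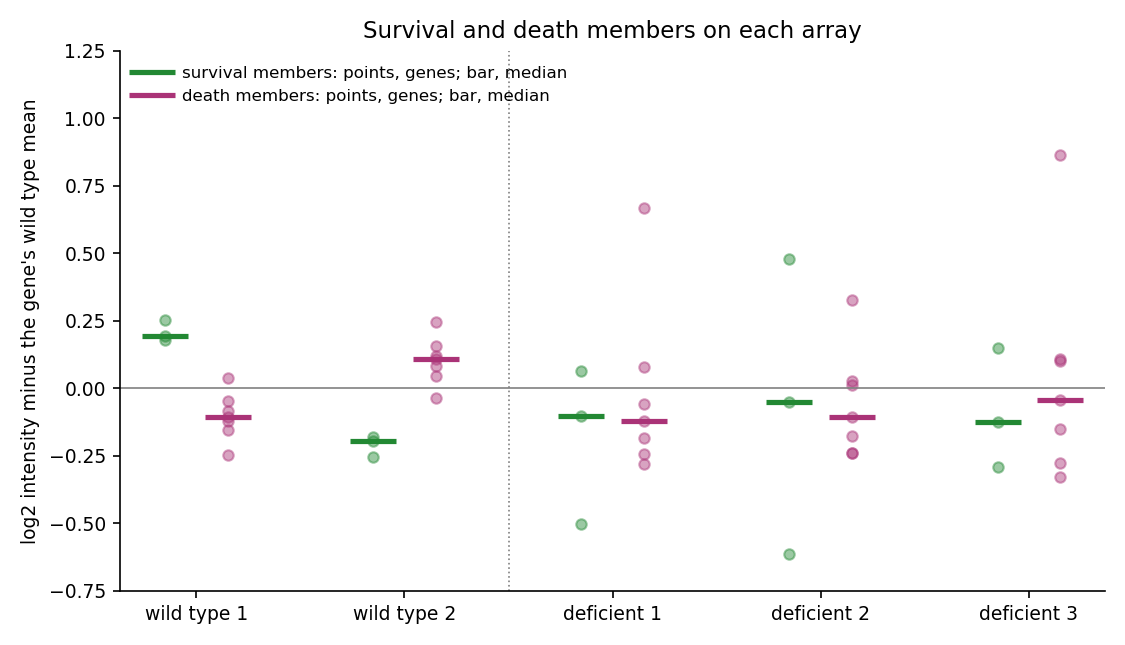
Log2 intensity of each gene's brightest probe set minus its wild-type mean (y axis) on each array (x axis), survival members in green and death members in purple, with points for genes and bars for medians. The survival bars lie at the Bcl2l1 values. They are 0.20 and -0.20 on the wild-type arrays and between -0.12 and -0.05 on the deficient arrays. The highest purple points on deficient arrays 1 and 3 are Bcl2l11.

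Other members of the family were compared from a list of 16 genes, of which 10 had a value and 0 passed (2 at an unadjusted p under 0.05, both higher), where 2.24% of all genes passed and 8.79% were higher and 9.86% lower at that unadjusted p. Bax, Bcl2a1a, Bcl2a1b, Bcl2a1c, Bcl2a1d and Bnip3l were not analysed here. The median difference was 0.13, with 7 means higher and 3 lower (51.9% lower over all genes). Bcl2l2, which encodes the survival protein BCL-W, came closest: it read 7.47 and 7.17 in wild-type and 7.87, 7.94 and 8.01 in deficient arrays. All deficient arrays were higher than both wild-type arrays, with a difference of 0.62 (SE 0.13, limma adjusted p = 0.0795). Its 3 dimmer probe sets, all with means below the dim reference, differed by -0.04 to 0.32, and the mean of all 4 by 0.25. Bcl2l13, a mitochondrial family member with a role in mitophagy, differed by 0.28 (adjusted p = 0.263) and by 0.36 on its other probe set. Bcl2l14 differed by -0.28 (adjusted p = 0.357), and by -1.05 on its dimmer probe set (adjusted p = 0.0581). The BH3-only gene Pmaip1 (NOXA), with both group means below the dim reference, differed by 0.47 (limma adjusted p = 0.427). Bcl2l12 differed by 0.39 (adjusted p = 0.625), and by 0.08 without deficient array 2. Its other probe set, with a mean below the dim reference, differed by -0.17. Bcl2l10, also below the dim reference, differed by 0.14 (adjusted p = 0.680).

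Known regulators and partners of the members formed a list of 24 genes, of which 21 had a value and 0 passed in limma (unadjusted p under 0.05 for 4 higher, 3 lower), and the median was 0.08. Over all genes 2.24% passed, and 8.79% were higher and 9.86% lower at that unadjusted p. The other 3 were not analysed here. Ddit3, which encodes the stress factor CHOP, an activator of Bcl2l11, read 8.67 ± 0.22 in wild-type and 7.75 ± 0.19 in deficient arrays, a difference of -0.92 (SE 0.16, adjusted p = 0.0528), with -0.62 on its other probe set. Huwe1, whose product MULE tags MCL1 for degradation, read 8.85 ± 0.34 and 9.56 ± 0.04, a difference of 0.71 (SE 0.16, adjusted p = 0.0865). Its other 4 probe sets differed by -0.12 to 0.33, and the mean of all 5 by 0.27.

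The FOXO genes named here did not pass. Foxo1 had 9.12 ± 0.05 in wild-type and 8.44 ± 0.23 in deficient arrays (difference -0.68, adjusted p = 0.0884), and Foxo3 9.65 ± 0.22 and 10.16 ± 0.25 (0.51, adjusted p = 0.211). Other Foxo1 probe sets ran from -0.43 to 0.07, so the direction depended on the probe set. Foxo4, outside the naming rule, had a difference of 0.21 (adjusted p = 0.492). Myc, which sensitises cells to apoptosis, differed by 0.58 (SE 0.15, adjusted p = 0.111), and Casp8, which cleaves BID, by -0.41 (SE 0.13, adjusted p = 0.160).

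Over the 5 arrays, the genes whose centred profile lay nearest to that of Mcl1 were Rab37, Dennd2d and Ehbp1l1, at root mean square differences of 0.03 log2 units each, where Mcl1 itself varied by 0.30 about its mean. Rab37 read 8.995 and 8.504 in wild-type and 8.30, 8.19 and 8.47 in deficient arrays. The nearest to Bmf were 4930488L21Rik, Scgb1b2 and Prss27, at 0.01 to 0.02, all below the dim reference like Bmf itself. With 5 arrays many genes lie close to any profile.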

How the data were processed

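Biotin-labelled RNA copies of Trizol-extracted KLS cell RNA were put on Affymetrix arrays, per the labels. Each probe set has 1 deposited intensity per array, which the authors made with RMA, per the submitters' processing notes. No source used here gives its version, or says whether the excluded array took part. RMA forces like distributions on the arrays and compresses dim differences. Values ran from 6.96 to 31249 and were taken as linear, and log2 of the deposited intensity was taken here. Probe sets were named by GEO's platform annotation.

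Arrays were grouped by title. limma 3.58.1 in R 4.3.3 (lmFit, eBayes, two-sided, no covariate) was fitted on 45037 probe sets, leaving out 64 AFFX controls, and on the brightest probe set per gene, with Benjamini-Hochberg adjustment over each table and a threshold of 0.05. The fit was tested on simulated data. With 2 and 3 arrays, the number of arrays limits precision.

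The members, lists and tests were chosen with earlier results of these data known. Named are all members, up to 6 genes of each further list with the smallest p, the 3 nearest profiles of the 2 members with the smallest p, and fixed marker lists. Rb1, Rbl1, Rbl2, Foxo4, Xist and Eif2s3y, named as checks or for comparison, fall outside this rule. Alternatives were quantile normalization again, cyclic loess, log2(value + 16), leaving out dim or _x_at and _s_at probe sets, an intensity trend, array weights, leaving out each array, the replicate number as a block, and the mean of a gene's probe sets.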

Additional observations from a re-analysis of the deposited data

How the results depend on the processing

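In limma, 0 members passed as genes under 14 alternatives (13 for Bmf, which is left out with the dim probe sets; smallest adjusted p 0.107) or as probe sets under 13 (0.123). Not all of these alternatives could move a difference. An intensity trend leaves every difference as it is, and the replicate block repeats those without deficient array 3. Leaving out dim or _x_at and _s_at probe sets kept the same brightest probe set for most members. With these included, 136 of 139 member gene values kept their direction. The others were Bcl2l1 without wild-type array 1 (0.10), Bik without deficient array 1 (0.001) and Hrk without wild-type array 2 (0.13), from ranges of -0.29 to 0.10, -0.11 to 0.001 and -0.19 to 0.13 with 1 array left out. Foxo1 was 0.075 without _x_at and _s_at probe sets, which changes its probe set. With 1 array left out, the survival median, each time the Bcl2l1 value, ran from -0.29 to 0.10. In the same fits the death median ran from -0.19 to -0.017 and survival minus death from -0.25 to 0.29. The death median was -0.14 with the mean of all probe sets. In the other family list 1 gene passed with that mean (Bcl2l14, -0.67), and in the regulator list 1, Ddit3, under cyclic loess or without dim probe sets. Calls over all probe sets numbered 221, 401 with an intensity trend, 115 with log2(value + 16), 23 to 78 with 1 array left out and 15 with the replicate number as a block. That block, which sets deficient array 3 aside, changed no member's call (Mcl1 -0.56). Deviations of same-numbered arrays from their group means correlated with r of -0.05 and -0.02. With 2 wild-type arrays these deviations mirror each other, so the check cannot decide whether the numbers pair the arrays. The causes of these shifts were not tested.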
